A study of Anser cygnoides with 6 samples.

Results

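The mitochondrial ribosomal protein genes of the Shitou goose (Anser cygnoides) were taken as the rows of the deposited gene table whose symbol begins with MRPL or MRPS followed by a number. This gave 58 of 14283 rows, 36 named for the large subunit (MRPL) and 22 named for the small subunit (MRPS). In 2 of these rows the member shared its assembled locus with another gene (MRPL38 with TRIM65 and MRPS6 with SLC5A3), so the value of such a row cannot be assigned to the member alone and is uncertain. The members were chosen by symbol and not by their values, although earlier results of these data were known at that point.

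RNA was sequenced from 6 cultures of wild-type (WT) primary myoblasts from goose leg muscle, 3 of which were proliferating (GM) and 3 of which had been set to differentiate (DM), and each culture gave 1 library. GM cells were kept in DMEM with 15% fetal bovine serum. DM cells were first grown in the same way and then moved to 2% horse serum (no other agent is named). The sample labels give 2 to 4 days of differentiation, whereas the methods give 3 days. The methods also speak of a higher percentage of fetal bovine serum at the change to horse serum. By the methods, GM cultures were collected at a lower density than the one at which DM cultures were moved to horse serum. The part of density in the results was not tested. The methods describe 1 mixed pool of cells from embryos at mid-incubation, enriched for myoblasts by serial plating and then divided into cultures, although they also speak of data from 6 geese. The libraries were treated here as cultures of a pool, so that both stages share their donors and p-values measure the spread between cultures, which may be largely technical.

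Mitochondria carry their own ribosome, which reads the few mRNAs encoded by mitochondrial DNA, all of them for membrane subunits of the respiratory chain and the ATP synthase. Its RNA is made inside the organelle, whereas all of its proteins are encoded in the nucleus, made on cytosolic ribosomes and imported. Part of these proteins have counterparts in the bacterial ribosome (unified names ending in m, such as bL17m and uS3m), and the others are specific to mitochondria (names such as mL42 and mS22). Differentiating muscle cells are known to build up respiratory capacity, so the comparison addresses whether the mRNA levels of the 2 ribosomal subunits differed between GM and DM.

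The values are FPKM, counts of fragments that the authors divided by gene length and library size, so levels of different genes are compared per length. Differences are log2 fold changes (DM over GM) of FPKM + 1, a scale that understates the change of low genes, and DEGs were genes whose limma p-value stayed under 0.05 after Benjamini-Hochberg adjustment over 10381 tested genes. The median FPKM of detected genes was 3.70 to 3.80 in GM and 3.82 to 3.94 in DM, and 12776 to 12882 genes in GM and 12510 to 12538 in DM were above the floor of 0.0001 that stands for 0. Genes listed as myoblast markers and found in the table were lower in DM for 5 of 5 genes (MYF5, MYF6, PAX7, MYOD1 and MET). Their summed level was 88.5 to 98.7 FPKM in GM and 33.8 to 35.6 FPKM in DM. Myotube markers rose for 3 of 7 genes (MYH15, MYOM3 and CKMT2; summed level 109 to 116 FPKM in GM and 132 to 155 FPKM in DM), while MYOG was 26.3 FPKM in GM and 19.1 FPKM in DM (limma adjusted p = 0.0528). Fibroblast markers rose for 4 of 6 tested genes, and their summed level was 1325 to 1373 FPKM in GM and 2652 to 2944 FPKM in DM, with LUM, DCN and COL3A1 as the largest contributors and TCF21 near 0 in all libraries. Of the other cell types, 2 of 4 immune markers were down-regulated (PTPRC and SPI1; summed level of the list 18.8 to 26.7 FPKM in GM and 20.2 to 29.1 FPKM in DM), as were the endothelial marker PECAM1 (list 3.17 to 3.48 and 2.22 to 2.35 FPKM) and the glial marker SOX10 (list 1.92 to 2.03 and 0.609 to 0.800 FPKM). These cultures thus held high fibroblast-marker RNA in both stages, and the part of these marker genes' cells in the results below was not tested. In bulk RNA, fewer cells of a type and less RNA per cell cannot be told apart.

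All 58 members were expressed and passed the filter of a mean of at least 0.5 FPKM. Few of them were called different between the stages. In DM, 4 members were up-regulated and 4 were down-regulated, and 50 were not called. The called share of 13.8% stands beside 30.3% of all tested genes (14.7% up-regulated and 15.5% down-regulated), and beside 29.7% of the 8085 tested genes whose level lay within the range of the members. The members were measured less precisely, with a median SE of 0.122, compared with 0.104 for all tested genes and 0.106 for those in the level range. The part of this in the called share was not tested. With the additional limit of a log2 fold change over 1 in size, 0 of 58 members were called, compared with 4.02% of all tested genes. This count depended on the scale. With 0.1 added to FPKM in place of 1, MRPL42 had a log2 fold change of -1.09 (limma adjusted p = 0.00152) and passed this limit. By limma without adjustment, 10 members had p under 0.05 (17.2%, compared with 42.5% of all tested genes).

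The median log2 fold change of the members was -0.04, and that of all tested genes was -0.03. The central members lay between -0.20 and 0.14 (quartiles), with 23 positive and 35 negative values. Positive values made up 39.7%, compared with 47.2% of all tested genes. The median size of a difference, whatever its sign, was 0.17 for the members and 0.24 for all tested genes. The 95% interval of the difference lay within a 2-fold change on this scale for 51 of 58 members (87.9%, compared with 83.4% of all tested genes) and within a 1.5-fold change for 38 (65.5%, compared with 55.8%). The other members, whose intervals reached beyond a 2-fold change, were the DEGs MRPL17 and MRPL42 and 5 genes that were uneven between libraries of 1 stage, described below. The libraries of the stages did not overlap for 12 of 58 members (20.7%, compared with 48.6% of all tested genes), 6 of them higher in DM and 6 higher in GM. Besides the 8 DEGs these were MRPL19 and MRPL55, which were higher in DM, and MRPS15 and the MRPS6 row, which were higher in GM, and none of these passed the test (limma adjusted p = 0.103, 0.287, 0.135 and 0.165).

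**Figure D1:**
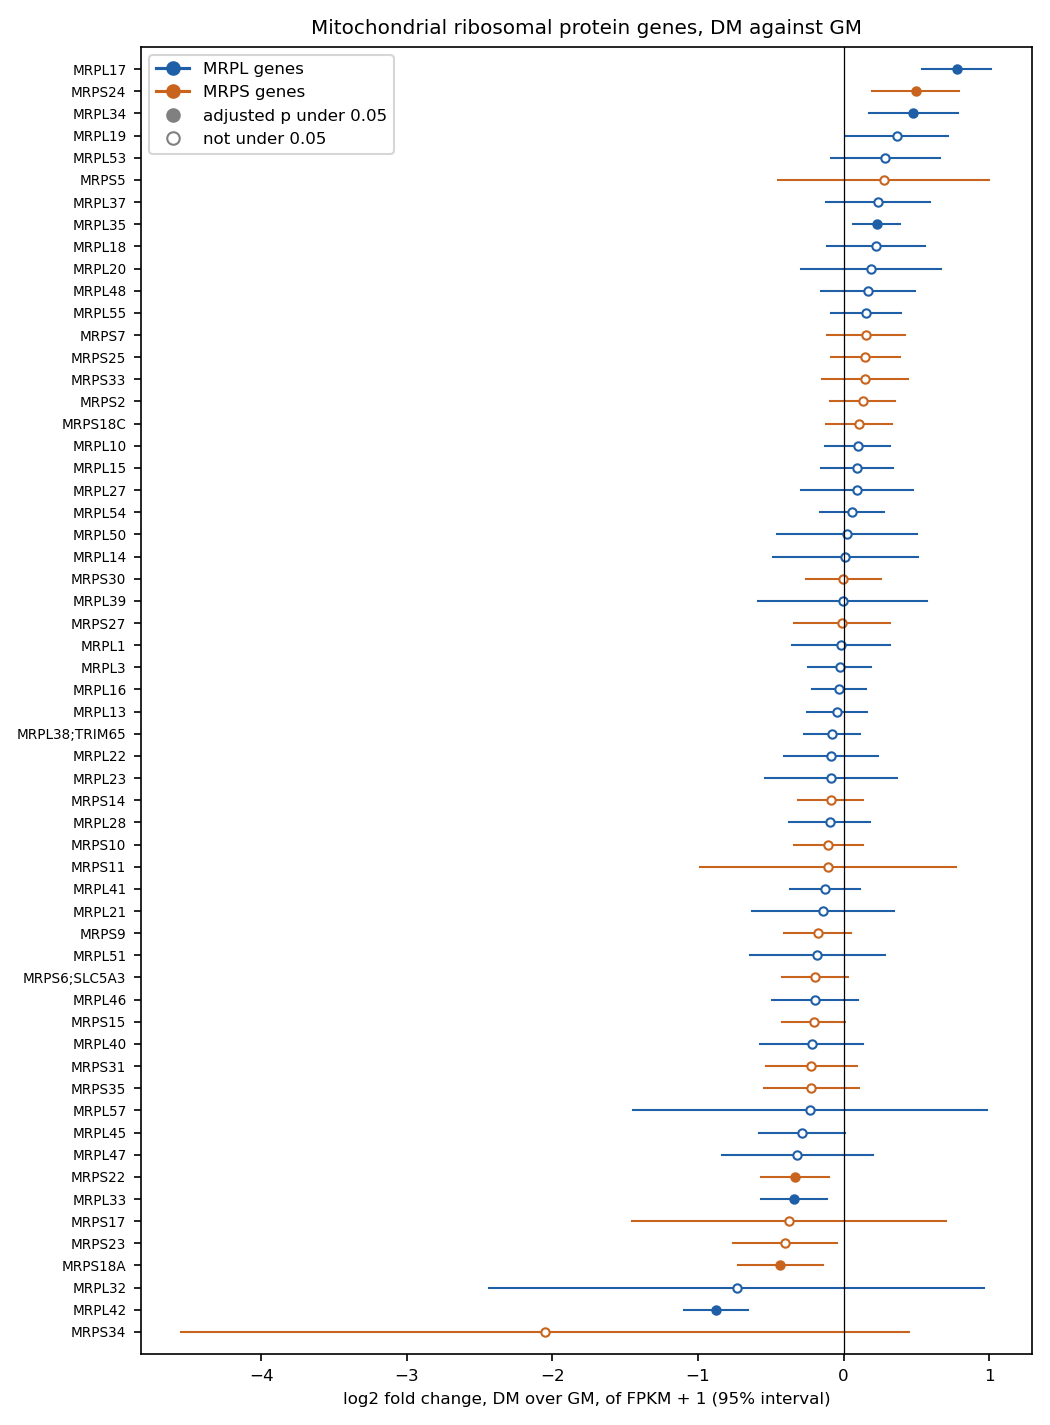
Log2 fold change (DM over GM) of FPKM + 1 for each of the 58 members, with MRPL genes in blue and MRPS genes in orange. Lines are 95% intervals, and filled points had a limma adjusted p-value under 0.05. Most points lie close to 0, MRPL17 (0.78) and MRPL42 (-0.88) are the DEGs farthest from it, and MRPS34 has the widest interval, from -4.55 to 0.45.

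Among the large-subunit proteins, MRPL17 (bL17m, gene MSTRG.11513), the counterpart of a bacterial protein of the same number, was the member with the largest rise. Its level was 8.51, 8.66 and 7.86 FPKM in GM 1 to 3 and 13.3, 15.1 and 16.9 FPKM in DM 1 to 3. The lowest DM library was far above the highest GM library. The mean was 8.34 ± 0.424 FPKM in GM and 15.1 ± 1.81 FPKM in DM (SD, n = 3 each), a 1.80-fold difference of FPKM, with a log2 fold change of 0.78 (SE 0.099, limma adjusted p = 0.00278). MRPL17 was called in all 13 alternative fits, and its log2 fold change stayed between 0.70 and 0.86 when any 1 library was left out.

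MRPL42 (mL42), a large-subunit protein without a bacterial counterpart, had the largest fall among the DEGs. Its level was 5.54, 5.47 and 4.98 FPKM in GM and 2.74, 2.30 and 2.32 FPKM in DM. Every DM library was well below every GM library, and the values within a stage lay close together. The mean fell from 5.33 ± 0.307 to 2.45 ± 0.253 FPKM (SD, n = 3 each), so GM held 2.17 times the level of DM, with a log2 fold change of -0.88 (SE 0.089, limma adjusted p = 0.00142). MRPL42 was also called in all 13 alternative fits, with values between -0.94 and -0.84 when any 1 library was left out.

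The other DEGs moved by less and sat closer to the threshold. MRPL34 (bL34m), the counterpart of one of the smallest bacterial ribosomal proteins, was 14.4, 17.1 and 19.6 FPKM in GM and 22.9, 22.4 and 26.8 FPKM in DM. The stages did not overlap, but GM 3 came near the lowest DM libraries. Its log2 fold change was 0.48 (SE 0.126, limma adjusted p = 0.0337), and it remained called in 1 of 6 fits that left out a library. MRPL35 (bL35m), another large-subunit protein with a bacterial counterpart, was 6.33, 6.63 and 6.96 FPKM in GM and 7.89, 7.95 and 7.98 FPKM in DM. The DM libraries were almost equal to each other and above all GM libraries. Its rise of 0.23 (SE 0.067, limma adjusted p = 0.0466) was the smallest of the DEGs and was called in 0 of 6 fits that left out a library, with adjusted p from 0.0672 to 0.133.

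MRPL33 (bL33m), which also has a bacterial counterpart, went the other way, with 4.87, 4.85 and 4.49 FPKM in GM and 3.18, 3.43 and 3.99 FPKM in DM. DM 3 was the DM library nearest to GM. Its log2 fold change was -0.34 (SE 0.093, limma adjusted p = 0.0379), and it was called in 1 of 6 fits that left out a library. MRPL19 (bL19m), the member with the largest positive difference that was not called, was 7.96, 6.82 and 9.23 FPKM in GM and 9.45, 9.83 and 12.6 FPKM in DM. All DM libraries were above all GM libraries, but GM 3 and DM 1 were nearly equal. Its log2 fold change was 0.37 (SE 0.143, limma adjusted p = 0.103).

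Among the proteins named for the small subunit, MRPS24 (uS3m), the counterpart of bacterial protein S3 at the mRNA entry side, was the DEG that rose. Its level was 7.85, 9.86 and 10.4 FPKM in GM and 11.99, 14.3 and 14.4 FPKM in DM. GM 1 was the lowest library and no DM library reached down to the GM range. The mean was 9.35 ± 1.33 FPKM in GM and 13.6 ± 1.36 FPKM in DM (SD, n = 3 each), with a log2 fold change of 0.50 (SE 0.123, limma adjusted p = 0.0283), and 2 of 6 fits that left out a library kept the call.

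MRPS22 (mS22), a mitochondrion-specific protein of the small subunit, was 6.90, 6.26 and 6.93 FPKM in GM and 4.52, 5.18 and 5.67 FPKM in DM. GM was higher in every library. Its log2 fold change was -0.33 (SE 0.096, limma adjusted p = 0.0441), it was called in 1 of 6 fits that left out a library, and without the filter on low values the adjusted p was 0.0504. MRPS18A is named for the small subunit because it is a paralog of bacterial S18, but in mammalian structures it sits in the large subunit as mL66. Its level was 10.3, 11.6 and 10.4 FPKM in GM and 6.91, 9.30 and 7.06 FPKM in DM. DM 2 came closest to GM, and the other DM libraries were clearly lower. Its log2 fold change was -0.43 (SE 0.121, limma adjusted p = 0.0402), called in 1 of 6 fits that left out a library.

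**Figure D2:**
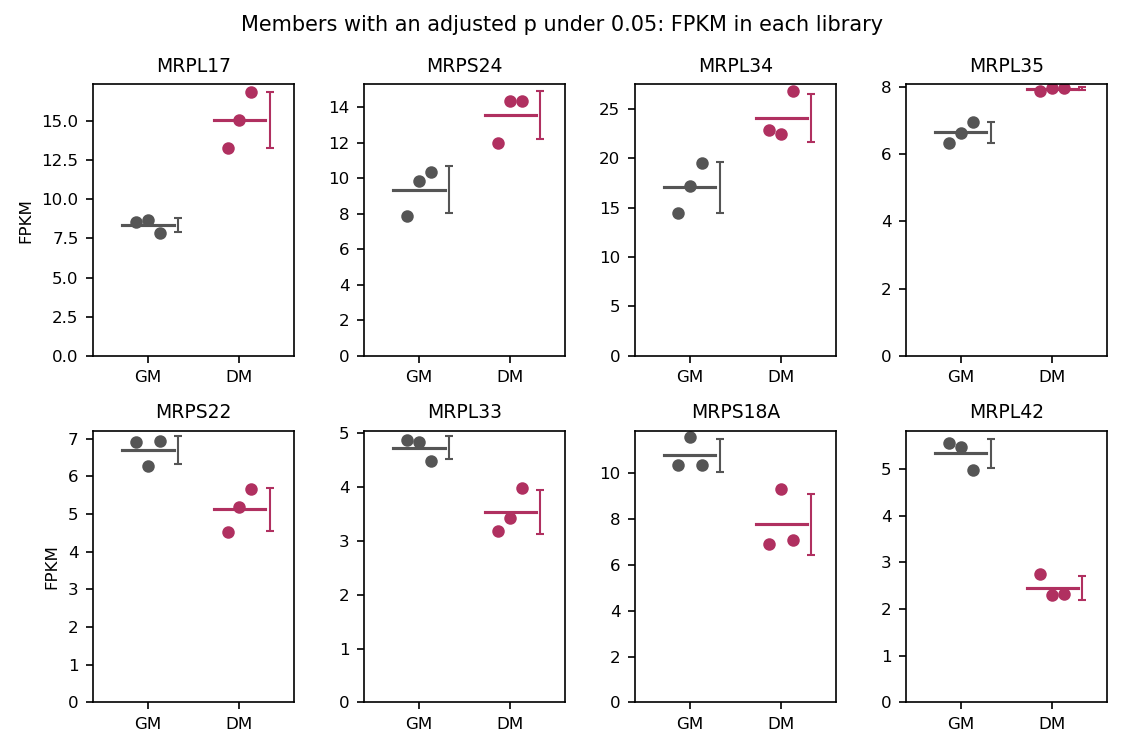
FPKM of the 8 members with a limma adjusted p-value under 0.05 in each GM (grey) and DM (red) library. Points are libraries, horizontal lines are means and bars beside them are SD (n = 3). The stages do not overlap in any panel. MRPL17 lies at 7.86 to 8.66 FPKM in GM and 13.3 to 16.9 FPKM in DM, and MRPL42 at 4.98 to 5.54 FPKM in GM and 2.30 to 2.74 FPKM in DM.

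The subunits were then compared with each other. Of the 36 large-subunit genes, 3 were up-regulated and 2 were down-regulated (13.9% called), and the median log2 fold change was -0.02 with 16 positive and 20 negative values. Of the 22 small-subunit genes, 1 was up-regulated and 2 were down-regulated (13.6% called), and the median was -0.11 with 7 positive and 15 negative values. Both called shares were below that of all tested genes (30.3%), and the median of all tested genes was -0.03. Positive values made up 44.4% of the large subunit, 31.8% of the small subunit and 47.2% of all tested genes. When MRPS18A (mL66) and MRPS30 (mL65) were moved to the large subunit, as in mammalian structures, the large subunit held 38 genes with 3 up-regulated and 3 down-regulated and a median of -0.02, and the small subunit held 20 genes with 1 in each direction and a median of -0.11. The direction of these medians was not the same in all fits: without DM 1 the median was 0.06 for the large subunit and 0.00 for the small subunit, and without DM 3 it was -0.07 and -0.16.

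The summed level of the large subunit was 365, 399 and 402 FPKM in GM and 356, 411 and 453 FPKM in DM. The stages overlapped, and DM held both the lowest and the highest library. The summed level of the small subunit was 219, 245 and 228 FPKM in GM and 175, 207 and 251 FPKM in DM, which again overlapped. The ratio of the large to the small sum was 1.67, 1.63 and 1.76 in GM and 2.03, 1.98 and 1.81 in DM, so that every DM library was above every GM library. This gap was narrow, between 1.76 in GM 3 and 1.81 in DM 3, and it depended on which genes were counted. With MRPS18A and MRPS30 moved to the large subunit, the ratio was 2.204, 2.209 and 2.334 in GM and 2.767, 2.629 and 2.335 in DM. GM 3 and DM 3 were then nearly equal. By name but without MRPS34 the ratio was 1.95, 1.96 and 2.12 in GM and 2.06, 2.02 and 2.27 in DM, and the stages overlapped. The highest of these ratios was that of DM 3.

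The middle gene of each subunit gave another view. The median level of the large-subunit genes was 7.34, 6.95 and 6.90 FPKM in GM and 7.34, 7.82 and 8.48 FPKM in DM. That of the small-subunit genes was 8.21, 8.86 and 9.11 FPKM in GM and 5.76, 7.37 and 7.60 FPKM in DM. The ratio of these medians was below 1 in GM (0.895, 0.784 and 0.758) and above 1 in DM (1.28, 1.06 and 1.12), and without MRPS34 it was 0.762 to 0.936 in GM and 0.983 to 1.13 in DM, still without overlap. On the log2 scale, where every gene counts alike, the mean of the large subunit minus that of the small subunit was -0.04 to 0.07 in GM and 0.10 to 0.19 in DM, and without MRPS34 it was 0.06 to 0.17 in GM and 0.06 to 0.25 in DM, which overlapped. These ratios are descriptions, since genes of a subunit are not replicates, and 3 libraries against 3 cannot reach an exact permutation p below 0.1.

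**Figure D3:**
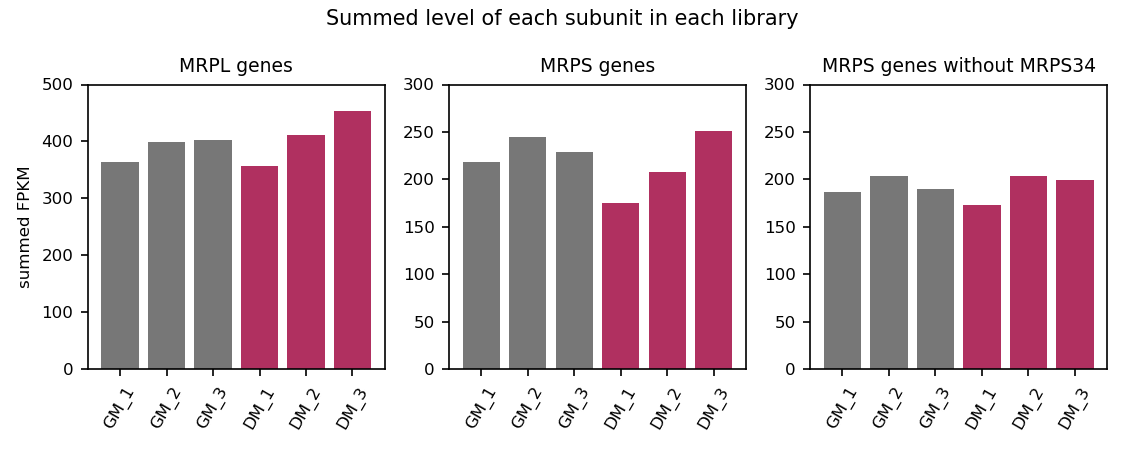
Summed FPKM of the MRPL genes, the MRPS genes and the MRPS genes without MRPS34 in each GM (grey) and DM (red) library, with 1 bar per library. The bars of both subunits overlap between stages, at 365 to 402 FPKM in GM and 356 to 453 FPKM in DM for MRPL. Without MRPS34 the MRPS sums are 187 to 204 FPKM in GM and 173 to 204 FPKM in DM.

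The libraries of a stage differed among themselves in a way that ran through many members. DM 1 was the lowest DM library for 40 of 58 members (69.0%, compared with 46.9% of all tested genes) and DM 3 was the highest for 37 (63.8%, compared with 44.2%). In GM, GM 1 was the lowest for 33 members (56.9%, compared with 40.4%). The share of all FPKM taken by the members was 0.336% to 0.354% in GM and 0.309% to 0.371% in DM, so the stages overlapped and DM was the wider.

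A further split followed the unified names of the proteins and was chosen after the values were seen. Names that begin with m were taken as mitochondrion-specific. Among the 34 members with a bacterial counterpart, 4 were up-regulated (MRPL17, MRPS24, MRPL34 and MRPL35) and 1 was down-regulated (MRPL33), with a median log2 fold change of -0.02 and 18 negative values. Among the 24 mitochondrion-specific members, 0 were up-regulated and 3 were down-regulated (MRPL42, MRPS18A and MRPS22), with a median of -0.15 and 17 negative values. Negative values made up 52.9% of the former, 70.8% of the latter and 52.8% of all tested genes. MRPS18A was placed among the latter by its name mL66, although it is a paralog of bacterial S18, so its place in this split is uncertain. The shares of up-regulated genes were 11.8% and 0%, compared with 14.7% of all tested genes, and those of down-regulated genes were 2.94% and 12.5%, compared with 15.5%, so all were below the background. By limma without adjustment, p was under 0.05 for 6 of the former and 4 of the latter (17.6% and 16.7%, compared with 42.5%). Within the large subunit the medians were -0.0030 for 22 members with a counterpart and -0.10 for 14 without, and within the small subunit they were -0.10 for 12 and -0.22 for 10. No test of this split was made.

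The members spanned a 26.1-fold range of levels, from 1.56 to 40.8 FPKM averaged over the 6 libraries, with quartiles at 4.08, 7.83 and 14.0 FPKM. Of the 58, 22 were above 10 FPKM and 9 were below 3 FPKM. The highest was MRPL54 (mL54), a mitochondrion-specific protein of the large subunit, with 37.5, 40.6 and 41.6 FPKM in GM and 36.8, 43.2 and 44.9 FPKM in DM. The stages overlapped fully, with a log2 fold change of 0.06 (SE 0.091, limma adjusted p = 0.671). MRPL45 (mL45), which lies at the exit tunnel and ties the human ribosome to the inner membrane, was next with 39.0, 45.0 and 46.2 FPKM in GM and 29.96, 37.3 and 39.4 FPKM in DM. Only GM 1 and DM 3 overlapped, and the log2 fold change of -0.29 (SE 0.121) did not pass the test (limma adjusted p = 0.125). MRPL15 (uL15m), which has a bacterial counterpart, was 25.4, 29.99 and 30.8 FPKM in GM and 27.7, 31.4 and 33.2 FPKM in DM, with overlap (log2 fold change 0.09, limma adjusted p = 0.527).

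Of the genes named for the small subunit, MRPS30 was the highest by the mean over the 6 libraries (29.2 FPKM, followed by MRPS34 at 27.9 FPKM), whereas MRPS34 was above it in every GM library and in DM 3. The protein of MRPS30 sits in the large subunit of mammals as mL65. This gene had 26.3, 32.5 and 28.8 FPKM in GM and 27.2, 27.7 and 32.7 FPKM in DM, and its mean was nearly equal in the stages, at 29.2 ± 3.11 and 29.2 ± 3.01 FPKM (SD, n = 3 each). MRPS2 (uS2m), the counterpart of bacterial S2, was 16.1, 18.9 and 19.5 FPKM in GM and 18.5, 21.0 and 20.3 FPKM in DM. Its ranges overlapped, and the log2 fold change was 0.13 (limma adjusted p = 0.330). Neighbours in the order of levels, such as MRPL54 and MRPL45 or MRPL15 and MRPS30, overlapped in their ranges over the 6 libraries. Within libraries, MRPL45 was above MRPL54 in every GM library and below it in every DM library. MRPL15 was above MRPS30 in every DM library and in GM 3, and below it in GM 1 and GM 2. Differences in level between members were not tested. At the other end were MRPL46 (mL46), MRPL32 (bL32m) and MRPL57 (mL63), at 1.56, 1.56 and 1.65 FPKM.

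In 5 members (8.62%, compared with 6.69% of all tested genes) the highest library of a stage was more than 3 times the lowest. The most uneven was MRPS34 (mS34), a mitochondrion-specific protein of the small subunit, with 31.5, 40.8 and 38.2 FPKM in GM and 2.11, 3.63 and 51.4 FPKM in DM. DM 1 and DM 2 were far below GM, whereas DM 3 was above all GM libraries. In rank among the 58 members it stood 3, 2 and 3 in the GM libraries and 49, 45 and 1 in the DM libraries. Its log2 fold change of -2.05 (SE 1.03, interval -4.55 to 0.45) was the most negative of all members and was not called (limma adjusted p = 0.183). Without DM 3, which left 2 DM libraries, it was -3.31 (limma adjusted p = 0.00143), and over the 6 fits that left out a library it ranged from -3.31 to -1.27 with adjusted p up to 0.389.

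The other uneven members were low in level. MRPL32 (bL32m), whose yeast form is cut to its mature size by the m-AAA protease of the inner membrane, was 0.311, 0.534 and 6.85 FPKM in GM and 0.213, 1.17 and 0.301 FPKM in DM. GM 3 alone was high. MRPL57 (mL63), a small mitochondrion-specific protein, was 1.89, 0.993 and 2.07 FPKM in GM and 0.309, 0.702 and 3.94 FPKM in DM. DM 3 was its highest library and DM 1 its lowest. MRPS17 (uS17m), the counterpart of bacterial S17, was 5.27, 3.58 and 3.94 FPKM in GM and 1.20, 6.80 and 2.80 FPKM in DM, and here DM 2 was the high library. MRPS5 (uS5m), the counterpart of bacterial S5, was 1.31, 3.74 and 4.03 FPKM in GM and 3.50, 3.77 and 3.57 FPKM in DM. Only its GM 1 library stood apart. None of these was called (limma adjusted p = 0.465, 0.757, 0.560 and 0.518). The median of the members without the uneven genes was -0.03.

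**Figure D4:**
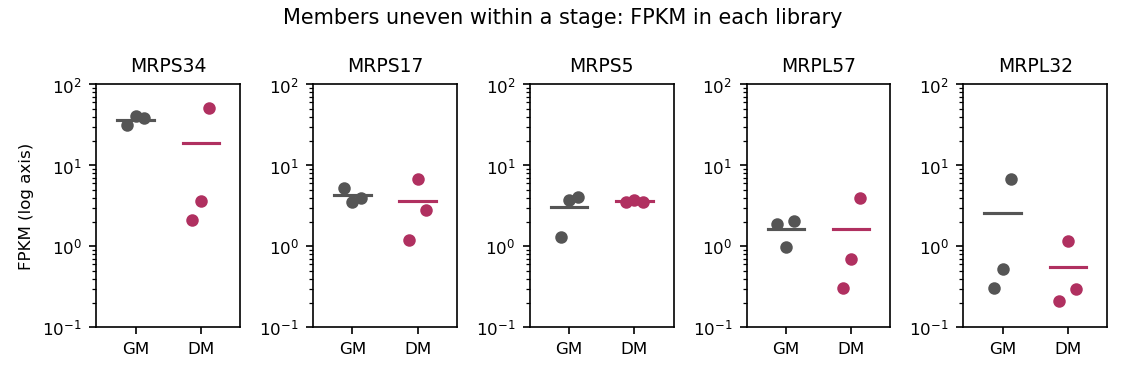
FPKM on a log axis, by library, of the 5 members whose highest library was more than 3 times the lowest within GM (grey) or DM (red). Points are libraries and lines are means. In MRPS34 the DM 3 library (51.4 FPKM) lies with the GM libraries while DM 1 (2.11 FPKM) and DM 2 (3.63 FPKM) lie far below.

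A second readout at the same genes came from the lncRNA table, which lists 14993 assembled transcripts over 200 bases that were not in the known annotation. Of these, 18 lay at 10 member genes, with lengths of 372 to 1844 bases. By their class codes 11 shared a splice junction with the gene (j), 6 overlapped its exons on the same strand (o) and 1 lay within an intron (i). Of the 12 that were tested, 0 were down-regulated and 1 was up-regulated, which passed the filter on low values only through DM. This count is thus a description and allows no comparison with the whole table, where 3.62% of 12988 tested transcripts were called. The same transcript is among the 3 with an unadjusted limma p under 0.05 (25.8% in the whole table).

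The called transcript lay at MRPL17 (class o, 2 exons, 1564 bases). It was listed at 0.0001, the value that stands for 0, in all GM libraries, and at 3.41, 1.13 and 4.72 FPKM in DM. It passed the filter on low values only through DM, where it was high, so its call was bound to that filter and is given as a description, with no p-value. At MRPL42 a class j transcript of 634 bases was 2.97, 3.65 and 3.90 FPKM in GM and 2.42, 1.59 and 1.47 FPKM in DM, with a log2 fold change of -0.68 that did not pass the test (limma adjusted p = 0.0775). The stages did not overlap, and GM was higher, as for the gene. A transcript at MRPS34 (class j) was too low to be tested, with 0.0374, 0.0813 and 0.0254 FPKM in GM and 0.172, 0.298 and 0.0164 FPKM in DM. It was highest in DM 1 and DM 2, the libraries in which the MRPS34 gene was lowest. At MRPS18C, MRPS23 and MRPS25 the sum of such transcripts was larger than the gene's own value in 6 of 6 libraries. The gene value is thus not a sum over all of them. At MRPS23, however, the gene and its class j transcript were nearly equal in every library, such as 2.81 and 2.88 FPKM in GM 1. In DM 3 they were 1.83 and 1.87 FPKM. Whether reads were shared between a gene and these transcripts was not tested.

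Other genes of mitochondrial translation were read from lists by name. Of 2 mitoribosomal proteins that carry other symbols and were found in the table, PTCD3 (mS39), a repeat protein at the mRNA entry of the small subunit, was 10.2, 10.8 and 10.3 FPKM in GM and 6.95, 8.25 and 8.01 FPKM in DM. All DM libraries were lower, with a log2 fold change of -0.39 (SE 0.082, limma adjusted p = 0.0164). AURKAIP1 (mS38) was 3.99, 5.05 and 10.2 FPKM in GM and 4.96, 5.95 and 6.12 FPKM in DM, with overlap (log2 fold change -0.07, limma adjusted p = 0.881).

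Of 7 mitochondrial translation factors, 0 were up-regulated and 2 were down-regulated (28.6% called, near the 30.3% of all tested genes). These were MTFMT, the enzyme that formylates the initiator tRNA, with a log2 fold change of -0.42 (limma adjusted p = 0.0116), and GFM1, the elongation factor that moves the ribosome along, with -0.27 (limma adjusted p = 0.0320). Of 21 genes in the list of assembly factors, 0 were up-regulated and 3 were down-regulated, and the median was -0.04 (14.3% called). Among these 3 was ALKBH1 (-0.66), a tRNA-modifying dioxygenase, so the list was not limited to assembly factors in the strict sense. A list of 17 genes held aminoacyl-tRNA synthetases that act in mitochondria and the amidotransferase subunits QRSL1, GATB and GATC, which are not synthetases. Of these 17, 2 were up-regulated, led by GARS (0.46), which serves both compartments. In the other direction, 1 was down-regulated, MARS2 (-0.41), and the median was 0.07 (17.6% called). Both of these shares were below that of all tested genes.

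The lists of OXPHOS subunits and cytosolic ribosomal proteins had higher medians than the members. The OXPHOS list held only genes with NDUF, SDH and ATP5 symbols, named for complexes I and II and the ATP synthase. It held no genes with UQCR or COX symbols, named for complexes III and IV, so it covers only part of the system. Of 38 nuclear-encoded genes in the OXPHOS list, 6 were up-regulated, led by NDUFA12 of complex I (0.66). The 1 down-regulated gene was SDHC of complex II (-0.28). The median log2 fold change was 0.18, with 32 positive values (84.2%, compared with 47.2% of all tested genes). Of 57 tested genes in the cytosolic ribosomal list, 8 were up-regulated, led by RPL35 (0.64), and 1 was down-regulated, RPLP2 (-0.44). The median was 0.19, with 45 positive values (78.9%). Both lists were fixed by name. ATP5S in the former and RPL7L1 and RPS27L in the latter were counted without a check that they are subunits. The members, with 23 of 58 positive and a median of -0.04, stood lower than both, and by called genes the shares were 18.4% for OXPHOS subunits, 15.8% for cytosolic ribosomal proteins and 13.8% for the members, all below the 30.3% of all tested genes. In the cytosolic list the DM libraries also differed among themselves. Its median level was 173 to 191 FPKM in GM and 183, 235 and 259 FPKM in DM 1 to 3. DM 1 thus lay within the GM range by the median, but not by the sum (18107 FPKM, GM 16200 to 17531 FPKM). The difference between lists was not tested, since genes of a list are not replicates.

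**Figure D5:**
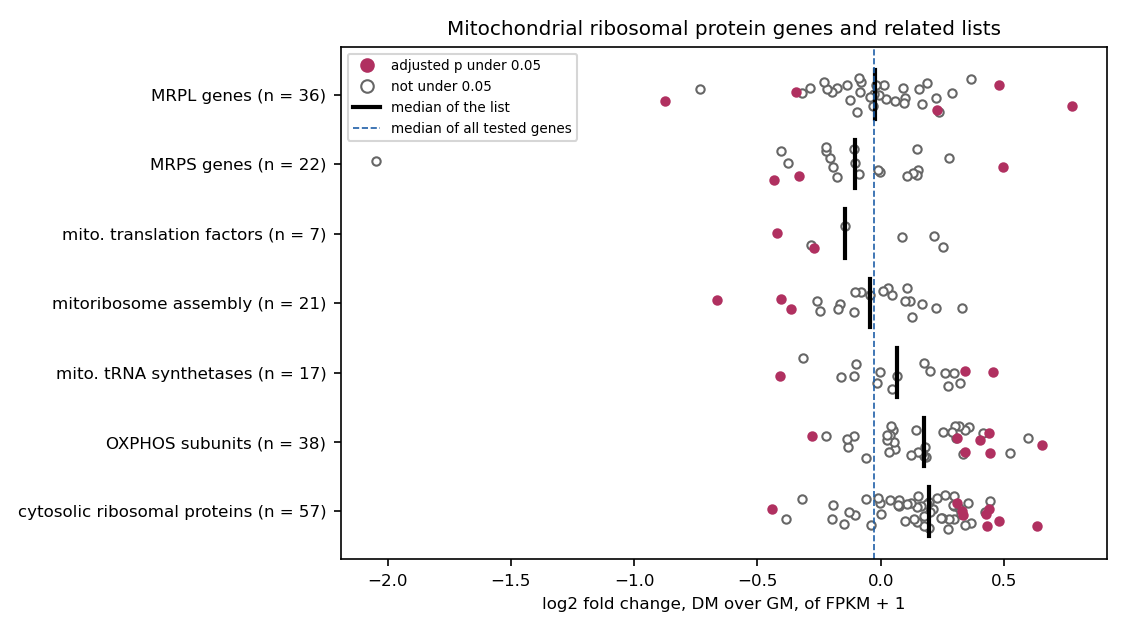
Log2 fold change (DM over GM) of FPKM + 1 for each tested gene of the 2 subunits and of 5 related lists. Points are genes, filled where the limma adjusted p-value was under 0.05, black bars are list medians and the dashed line is the median of all tested genes (-0.03). OXPHOS subunits (NDUF, SDH and ATP5 symbols only, median 0.18) and cytosolic ribosomal proteins (median 0.19) lie mostly to the right of the line. MRPL (-0.02) and MRPS genes (-0.11) lie around or to the left of it.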

How the data were processed

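Per the labels and the study's methods, rRNA-depleted stranded libraries were sequenced in pairs, trimmed with Cutadapt, checked with FastQC and mapped to the goose assembly GooseV1.0. The methods name Bowtie2 as the mapper and the submitters' processing notes list HISAT2 and TopHat. Versions are not given in the sources used here. Transcripts were assembled with StringTie, and the authors deposited FPKM values from StringTie and Ballgown (fragments per kilobase of model, scaled to the mapped fragments of the library), for 14283 genes and 14993 lncRNA transcripts, with 0.0001 in place of 0. The deposited lncRNA table also gives other columns, transcript length and number of exons. The deposited ratios, log2 ratios and p-values of the authors' own comparison were not used. No gene sequences were used. Gene names were matched by symbol to a RefSeq table of another goose assembly, which held 57 of the 58 members and 15 further symbols of the same form that were not analysed as members, and no coordinates were taken from it.

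Groups came from the sample titles. A linear model of log2(FPKM + 1) on stage was run in limma 3.58.1 (R 4.3.3; lmFit, then eBayes using the mean-variance trend) on every row averaging 0.5 FPKM or more, which kept 10381 genes and, in a separate fit, 12988 lncRNA transcripts. Benjamini-Hochberg adjustment covered all tested rows of a table, and intervals are 95%. The fit was tested on simulated data. edgeR had been foreseen for counts, but the values are FPKM without counts, so limma was used and the depth behind each value is unknown. The number of libraries limits the precision. Summaries were made with Python 3.11.15 and pandas 2.3.3, and plots with matplotlib 3.10.9.

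Members named in full were all DEGs, the 3 with the highest level in each subunit, those with the largest and the smallest log2 fold change among members not called, and those with a called lncRNA. From each list the called genes with the largest rise and fall were named. MRPL32, MRPL46, MRPL55, MRPL57, MRPS5, MRPS15, MRPS17 and the lncRNAs at MRPL42 and MRPS34 were named after their values were seen. Members and lists were chosen with earlier results of these data known. Alternatives were a pseudocount of 0.1, no filter or one at 2 FPKM, quantile normalization, median centring, no trend, the fold limit, the replicate number as a block, leaving out each library, and the subunit by structure. Those added after the data were seen were leaving out the 2 shared rows, MRPS34, MRPL32 or the uneven members.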

Additional observations from a re-analysis of the deposited data

How the results depend on the processing

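The count of members called was lower in every fit that left out 1 library. Of the 8 DEGs, MRPL17 and MRPL42 were called in every fit that left out 1 library, and the total called in these fits was 2 to 5. Members higher in DM numbered 4 and ranged from 1 to 3, and members lower in DM numbered 4 and ranged from 1 to 4. By subunit, large-subunit members ranged from 1 to 2 higher (3 with all libraries) and from 1 to 2 lower (2), and small-subunit members from 0 to 1 higher (1) and from 0 to 2 lower (2). The median log2 fold change ranged from -0.11 to 0.045 for all members, from -0.074 to 0.057 for the large subunit and from -0.16 to 0.0022 for the small subunit. In each case it was lowest without DM 3 and highest without DM 1. Over all genes these fits called 1960 to 3067 genes, compared with 3143 from all libraries, the lowest without DM 2, and leaving out GM 1, GM 2 or GM 3 gave 2091, 2024 and 2076. The fold limit of log2 1, applied to FPKM + 1, left 0 members in each direction and in each subunit, and 417 genes in all. With the pseudocount of 0.1, MRPL42 passed this limit (log2 fold change -1.09, limma adjusted p = 0.00152). Small-subunit members lower in DM were 1 without a filter, 1 with the subunit by structure and 1 with the replicate block.

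With the replicate number as a block, 8 members were called, 5 of them shared with the fit without it. MRPL33, MRPL35 and MRPS22 were lost (limma adjusted p = 0.0893, 0.0856 and 0.0776) and MRPL19, MRPL37 and MRPL45 were gained (0.0462, 0.0499 and 0.0343). The labels number the replicates but do not say that a number marks a shared culture or day, and deviations of same-numbered libraries correlated by 0.03, 0.02 and -0.0024 across genes, so the numbers were not read as pairs. MRPS30, which was near 0, changed sign, to 0.011 with median centring and, over the fits that left out 1 library, with a range from -0.082 to 0.075. Of the uneven members, MRPS5, MRPL57, MRPS17 and MRPL32 each changed sign in 1 fit that left out a library, to -0.08, 0.15, 0.06 and 0.09. Other members that were not called also changed sign in at least 1 alternative fit, among them MRPL1, MRPL14, MRPL39, MRPL50, MRPS11 and MRPS27. The counts of positive and negative values thus depend on the fit. The cause of these changes was not tested. The pseudocount, the stricter filter, both scalings and the trend left the same 8 DEGs. The alternatives with edgeR and DESeq2 were not run, because the values are not counts. Without counts, what depth limits cannot be given.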

Other observations

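Rows outside the members held mitoribosomal genes behind another symbol. The row of TPD52, MRPS28 and ZNF704, 3 genes that share 1 assembled locus, was 12.2, 12.2 and 12.9 FPKM in GM and 8.74, 10.5 and 9.86 FPKM in DM. All DM libraries were lower (log2 fold change -0.33, limma adjusted p = 0.0274), and which of the genes this belongs to cannot be told apart. The row of CENPH and MRPS36 had a log2 fold change of 0.08 (limma adjusted p = 0.639) and that of MFF and MRPL44 had 0.04 (limma adjusted p = 0.671).

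Of 16 tested regulators of mitochondrial transcription and biogenesis, 12 had a negative log2 fold change (75%, compared with 52.8% of all tested genes). By the test 1 was up-regulated, the deacetylase SIRT1 (0.40), and 3 were down-regulated, with a median log2 fold change of -0.17, and the called share of 25% was below the 30.3% of all tested genes. PPRC1, a coactivator of the PGC-1 family, fell by 0.97 on the log2 scale, from 9.22, 10.3 and 9.23 FPKM in GM to 4.07, 4.72 and 4.40 FPKM in DM (limma adjusted p = 8.3e-04). Its stages were far apart. POLRMT, the mitochondrial RNA polymerase, fell by 0.36 (limma adjusted p = 0.0326) and ATAD3A, a membrane protein of the nucleoid, fell by 0.32 (limma adjusted p = 0.0440). PPARGC1A was too low to be tested, at a mean of 0.438 FPKM in GM and 0.355 FPKM in DM. Of 18 genes of mitochondrial import and mass, 2 were up-regulated, led by the matrix protease LONP1 (0.38), and 1 was down-regulated, PMPCA, a subunit of the enzyme that cuts off import signals (-0.26), and the median was 0.10 (16.7% called).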
